A study of Homo sapiens and Mus musculus with 28 samples.

Results

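The effect of removing the GATA6 protein for 72 h was set against the effect of knocking out the GATA6 gene, in the same human colorectal cancer line, DLD-1. The measure was a difference of effects: 72 h of auxin minus control in degron cells, less knockout minus wild type in ordinary cultures. It used 12 of the 28 RNA sequencing libraries of the study, taken by their labels and in 4 groups of 3. Genes were then separated into those that moved alike, those that moved further in knockout, those that moved further after degradation, and those that moved in opposite directions. The markers followed throughout were AXIN2, SCD, KRT20 and TSPAN8.

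DLD-1 is an established colorectal adenocarcinoma line. Both degron groups have the genotype GATA6-AID-IAA7, in which GATA6 carries an auxin-inducible degron. The first is the control, given in the labels as auxin at 0 h, and the second received 500 µM indole-3-acetic acid (IAA, an auxin) for 72 h. The other pair is WT cells and sgGATA6 cells, with a CRISPR knockout of GATA6 and no auxin. The controls of each pair therefore differ in genotype, and only the degron controls carry the tagged protein. No cells without the degron were given auxin in this study. Effects named here as degradation are those of auxin in degron cells, so auxin itself and loss of GATA6 cannot be told apart. The treatment text speaks of positive clones of the tagged line. How many clones there were, whether the knockout cells are 1 clone or a pool, and the guide sequence are not given in the sources used here. Nothing in the labels says that replicates were separate cultures, so p-values measure the spread between these samples, which may be technical.

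GATA6 is a zinc-finger transcription factor that binds GATA motifs and helps to set the identity of gut endoderm and its epithelium. An auxin-inducible degron lets a plant hormone receptor, once bound to auxin, tag the protein for destruction by the proteasome, so the gene and its mRNA remain. A knockout removes function for as long as the cells have been grown, and cells can adapt over that time, whereas degradation is timed and can be reversed.

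The 12 libraries held between 18296428 and 28585144 counts. Each group formed its own cluster in a principal component analysis. The first component (52.6% of the variance) set degron libraries, between -64.6 and -27.5, apart from the cultures, between 16.8 and 74.1. The controls of both systems thus lay apart as well. This component was also higher in the group with less GATA6 of each system. Degron controls lay at -64.6 to -62.3 and 72 h libraries at -30.2 to -27.5, WT at 16.8 to 22 and knockout at 70.8 to 74.1. The second component (20.4%) placed both control groups between 2.9 and 51.1 and both groups with less GATA6 between -32.3 and -21.7. Markers of colorectal epithelium (EPCAM, CDH1, KRT8, KRT18, KRT20, CDX2, VIL1 and CDH17) were detected in all 12 libraries, VIL1 at only 1.26 to 8.58 CPM (counts scaled to a common library size). Of other cells, the leukocyte gene PTPRC had 0 to 6 counts per library, the haemoglobin gene HBB 0 or 1 and the fibroblast collagen gene COL1A1 0 to 13. The summed level of 13 leukocyte markers ran from 1.86 to 2.2 CPM in degron controls, 2.79 to 2.99 at 72 h, 5.58 to 6.79 in WT and 26.7 to 28.4 in knockout cells. That of 14 fibroblast and endothelial markers ran from 4.9 to 6.45, 12.0 to 13.8, 6.15 to 7.12 and 7.72 to 9.68 CPM in the same order. Those of 9 erythroid markers stayed at or below 0.38 CPM. The leukocyte and stromal sums thus moved with the treatments, and their part in the results was not tested. Mitochondrially encoded transcripts made up 3.16% to 3.86% of counts in degron controls, 3.92% to 4.06% at 72 h, 6.23% to 7.11% in WT and 4.12% to 4.65% in knockout cells. The deposited files of the 72 h libraries are named in another pattern than those of their controls. Whether they were prepared or sequenced together is not stated, so a batch of that kind and 72 h of auxin cannot be told apart.

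Promoters of members are printed because GATA6 acts through DNA motifs and these genes carry the comparison. They are RefSeq sequences (GRCh38.p14) of the 250 bases before the start of the gene, on the gene's own strand. Capitals mark matches on either strand to a GATA word (the letters AGATAA, likewise TGATAA, and with a final G also AGATAG and otherwise TGATAG) or to CCAAT, the word of the factor NF-Y that many lipid genes carry. KRT20 (chr17:40885243-40885492, minus strand) and TSPAN8 (chr12:71158000-71158249, minus) moved further in knockout, as did CXCL5 (chr4:73998678-73998927, minus). SCD (chr10:100346983-100347232, plus) and FDPS (chr1:155308616-155308865, plus) moved in opposite directions.
KRT20: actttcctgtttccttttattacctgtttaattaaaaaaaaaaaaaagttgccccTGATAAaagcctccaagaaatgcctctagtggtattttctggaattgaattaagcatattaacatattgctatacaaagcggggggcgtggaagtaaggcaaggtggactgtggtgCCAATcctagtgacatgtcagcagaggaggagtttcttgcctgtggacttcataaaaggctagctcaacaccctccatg
TSPAN8: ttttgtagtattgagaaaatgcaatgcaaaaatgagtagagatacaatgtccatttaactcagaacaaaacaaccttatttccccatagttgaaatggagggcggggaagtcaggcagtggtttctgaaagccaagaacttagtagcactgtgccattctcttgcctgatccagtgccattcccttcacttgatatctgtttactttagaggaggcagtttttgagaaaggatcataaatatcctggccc
CXCL5: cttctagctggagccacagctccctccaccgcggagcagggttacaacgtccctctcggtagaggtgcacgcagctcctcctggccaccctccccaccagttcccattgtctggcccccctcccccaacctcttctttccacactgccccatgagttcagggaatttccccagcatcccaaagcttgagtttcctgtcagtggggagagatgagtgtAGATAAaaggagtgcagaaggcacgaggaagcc
SCD: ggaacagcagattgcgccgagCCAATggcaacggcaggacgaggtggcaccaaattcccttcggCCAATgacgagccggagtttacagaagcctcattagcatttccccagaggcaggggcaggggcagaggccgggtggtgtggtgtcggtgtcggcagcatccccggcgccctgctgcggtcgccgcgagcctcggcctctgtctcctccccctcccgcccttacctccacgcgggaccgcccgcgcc
FDPS: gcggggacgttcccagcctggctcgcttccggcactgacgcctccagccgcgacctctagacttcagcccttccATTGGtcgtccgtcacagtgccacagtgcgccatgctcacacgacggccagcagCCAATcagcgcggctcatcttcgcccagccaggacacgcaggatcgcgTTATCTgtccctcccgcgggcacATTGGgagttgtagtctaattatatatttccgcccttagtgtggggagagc
KRT20 holds a GATA word 195 bases before its start and CCAAT at 79, and CXCL5 holds a GATA word at 33. TSPAN8 holds neither word in this window. SCD holds CCAAT at 229 and 186, and FDPS holds it at 176, 122 and 51 with a GATA word at 74. A GATA word was found in 22.9% of 27305 promoters and in 13.0% of the 10731 whose gene was tested. It was found in 14 of 76 promoters (18.4%) of genes lower by a log2 of 1 or more in both systems, and in 31 of 193 (16.1%) of genes higher by as much. Of genes that moved in opposite directions by that much, 3 of 26 (11.5%) held one. A match is a description of the letters and not a binding site. AXIN2 and LGR5 were not in the table of promoters.

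GATA6 itself (ENSG00000141448, chr18:22169443-22202528 on hg38, plus strand) was measured first. Levels below are CPM after TMM scaling, in replicate order. GATA6 mRNA was 42.8, 49.1 and 46.3 CPM in degron controls and 30.9, 34.2 and 35.3 at 72 h. It was 59.9, 76.6 and 94.2 CPM in WT and 25.9, 19.0 and 22.7 in knockout cells. The groups did not overlap in either system, and transcript remained in every knockout library, so the mRNA does not by itself measure the loss of protein. The knockout lowered it by 1.77 on the log2 scale (SE 0.17, adjusted p = 1.39e-05), a 3.42-fold fall. At 72 h the log2 fold change was -0.46 (95% interval -0.84 to -0.08, adjusted p = 0.044). That call was lost when any 1 of the 6 degron libraries, WT replicate 2 or knockout replicate 3 was left out, with adjusted p from 0.0611 to 0.145.

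Both treatments changed much of the transcriptome, and the genes they changed strongly mostly moved the same way. Of 14536 genes tested, 7876 (54.2%) were called after 72 h of degradation, 3834 higher and 4042 lower. Knockout called 8480 (58.3%), 4223 higher and 4257 lower. A call is an adjusted p under 0.05 in edgeR's quasi-likelihood test. Both effects were called for 5330 genes, and 4135 of these (77.6%) had the same direction. A change of a log2 of 1 or more was called for 7.42% of genes after degradation and 11.3% in knockout. Of the 429 that changed so much in both systems, 392 (91.4%) had the same direction, 278 higher and 114 lower. The other 37 went opposite ways.

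The difference between both effects was called for 6398 genes (44.0%), and for 1239 (8.52%) it was also a log2 of 1 or more. Genes that moved alike, with both effects called in the same direction and no call of the difference, numbered 2571 (17.7%), of which 1169 rose and 1402 fell. A missed call does not show equal effects. A separate count took genes called in the same direction whose 95% interval of the difference lay within a log2 of 1 either way. It held 3523 genes (24.2%), among them genes whose difference was called, such as MCM6, so it overlaps the classes that follow. Genes deeper in knockout numbered 1011 (6.96%), 442 that rose and 569 that fell. Genes deeper in degradation numbered 553 (3.80%), 265 that rose and 288 that fell. Opposite directions were called for 1195 genes (8.22%), of which 625 rose after degradation and fell in knockout and 570 did the reverse. A further 1529 genes (10.5%) were called only after degradation and 1982 (13.6%) only in knockout, with the difference called. These classes follow from the calls, and their sizes were 275, 91, 26 and 37 for moved alike, deeper in knockout, deeper in degradation and opposite when both effects had to reach a log2 of 1. Nearest the threshold, RIN2 was inside (0.61 after degradation, 0.22 in knockout, difference 0.40) and SEH1L outside (-0.65, -0.83 and 0.18).

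**Figure D1:**
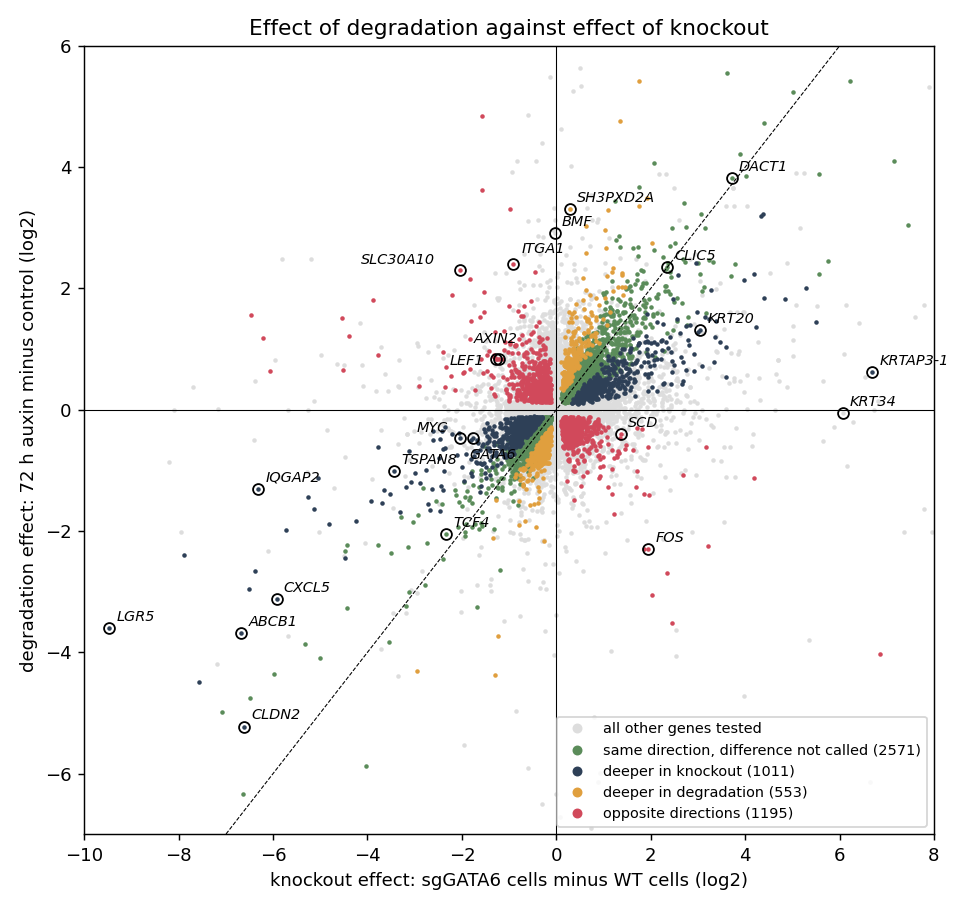
Each point is 1 of the genes tested, with the log2 fold change of knockout on the x axis and that of 72 h of degradation on the y axis; colours give the classes with their numbers of genes and the dashed line marks equal effects. LGR5 (-9.47 on x, -3.60 on y) and TSPAN8 lie far to the left of the line, CLIC5 lies on it, and AXIN2, LEF1, SCD and FOS lie in the quadrants of opposite direction.

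Genes that moved alike were of varied function. CLIC5, a chloride intracellular channel protein that links membrane to the actin cortex, was 19.3, 19.6 and 18.9 CPM in degron controls and 101, 99.6 and 95 at 72 h. It was 55.5, 51.9 and 55.0 CPM in WT and 285, 265 and 279 in knockout cells. CLIC5 started and ended higher in the cultures, yet each effect was a log2 of 2.35, and the 95% interval of the difference ran from -0.17 to 0.16. DACT1, a regulator of Dishevelled in WNT signalling, rose from 0.368 to 5.28 CPM on average after degradation and from 2.14 to 28.2 in knockout (log2 3.82 and 3.71, interval of the difference -0.51 to 0.72). GPR161, a receptor of the primary cilium that restrains Hedgehog signalling, rose by 2.04 and 2.29 (interval -0.73 to 0.21). CYP26B1, which degrades retinoic acid, and the kinesin KIF26B also rose in both, by 2.22 and 2.57 and by 2.43 and 2.96. Their differences were called, at -0.35 and -0.54. The call for CYP26B1 was lost without degron control replicate 1 or 2, 72 h replicate 2 or WT replicate 3, and that for KIF26B without any of 8 of the 12 libraries.

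Genes that fell alike included TCF4, a basic helix-loop-helix factor. TCF4 was 6.54, 6.49 and 5.83 CPM in degron controls against 1.39, 1.82 and 1.33 at 72 h, and 9.53, 9.35 and 10.3 in WT against 1.68, 2.06 and 2.01 in knockout cells. No group overlapped its control, and the effects were -2.05 and -2.33 (interval of the difference -0.20 to 0.77). The neuropeptide gene GAL fell by 1.89 and 1.90 on the log2 scale, with an interval of the difference from -0.31 to 0.33. C4BPB, a subunit of the complement inhibitor C4b-binding protein, fell by 1.93 and 1.79 (interval -0.40 to 0.12). UGT8, which makes galactosylceramide, fell by 1.68 and 1.57 (interval -0.39 to 0.16). SLC1A3, a glutamate and aspartate transporter, fell by 1.92 and 1.57 (interval -0.73 to 0.01).

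KRT20, the keratin of differentiated intestinal epithelium, rose in both systems and further in knockout. KRT20 (chr17:40875941-40885227) was 44.0, 41.9 and 43.7 CPM in degron controls and 105, 108 and 109 at 72 h. It was 56.7, 57.3 and 55.9 CPM in WT and 453, 481 and 472 in knockout cells. The controls differed little, and the knockout libraries stood above all others. The effects were 1.31 (SE 0.05) and 3.05 (SE 0.05), and the difference of -1.73 (SE 0.07) had an adjusted p of 6.8e-16.

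TSPAN8, a tetraspanin of the epithelial surface and of exosomes, fell in both and further in knockout. TSPAN8 was 137, 122 and 130.2 CPM in degron controls and 61.7, 66.2 and 64.2 at 72 h. It was 127, 106 and 121 CPM in WT and 11, 10.7 and 11.2 in knockout cells. Starting levels overlapped between systems, and the knockout libraries were lowest. Degradation lowered it by 1.02 (SE 0.06) and knockout by 3.43 (SE 0.07), with a difference of 2.42 (SE 0.09, adjusted p = 9.95e-16).

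LGR5, a marker of crypt stem cells and a receptor for R-spondins, neighbours TSPAN8 on chromosome 12. In GENCODE v29 (hg38) the plus-strand gene LGR5 (chr12:71439770-71586310) overlaps the start of the minus-strand TSPAN8 model (chr12:71125085-71441898). The TSPAN8 promoter printed above (chr12:71158000-71158249) is that of a different start, in RefSeq. The strand setting of the counting is not given in the sources used here, so reads from the overlap cannot be told apart. LGR5 was 67.5, 67.1 and 69.9 CPM in degron controls and 5.79, 5.26 and 5.79 at 72 h, a fall by 3.60 on the log2 scale (SE 0.09). In WT it was 24.2, 20.7 and 23.4 CPM, with 1354 counts in all, and the knockout libraries held 2 counts in all. The ratio of count rates was 795 (95% counting interval 220 to 6570). Even the low end of that interval was above the 12.1-fold fall after degradation.

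**Figure D2:**
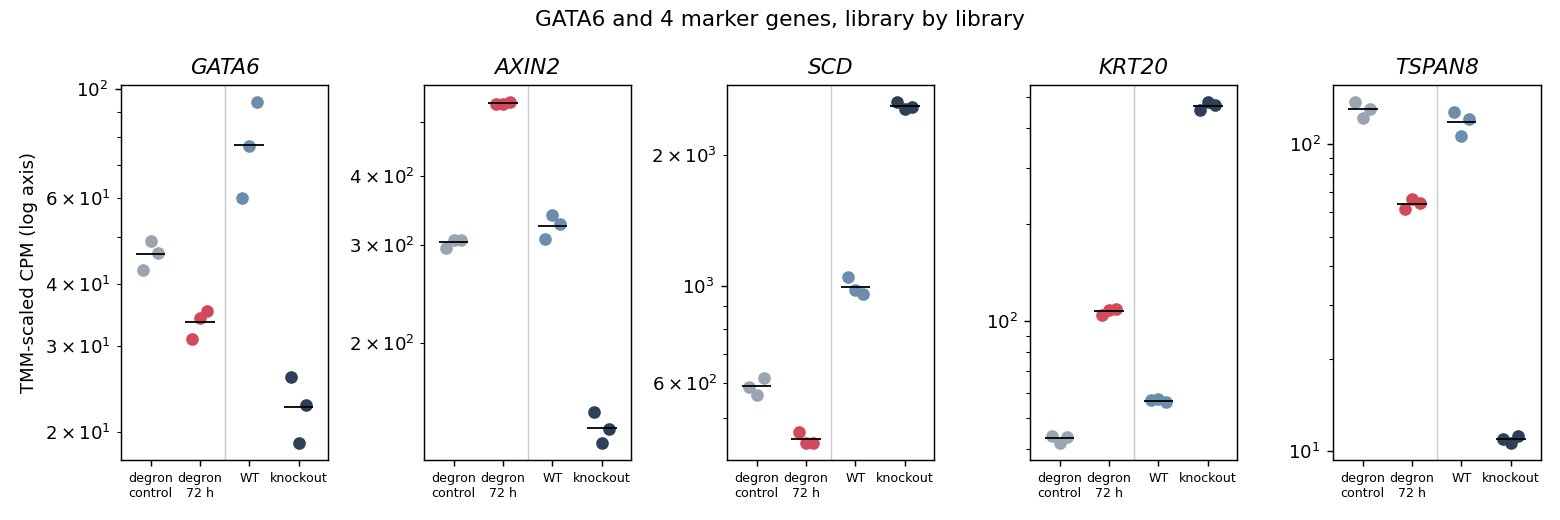
TMM-scaled CPM (log axis, 1 panel per gene with its own range) of GATA6, AXIN2, SCD, KRT20 and TSPAN8 in each of the 12 libraries; points are libraries and lines are group means. Knockout libraries hold the highest KRT20 and SCD and the lowest GATA6, AXIN2 and TSPAN8, whereas 72 h of auxin raised AXIN2 and lowered SCD.

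Other genes fell further in knockout. CLDN2, which forms the cation pore of leaky tight junctions, averaged 47.4 CPM in degron controls and 1.26 at 72 h, and 73.3 in WT and 0.745 in knockout cells. It was nearly lost in both systems, and its effects of -5.23 and -6.61 differed by 1.38 (SE 0.23). ABCB1, the drug efflux pump P-glycoprotein, went from 54.7 to 4.27 CPM after degradation and from 57.3 to 0.539 in knockout, with effects of -3.68 and -6.67. CXCL5, a neutrophil-attracting chemokine, went from 684 to 78.9 and from 393 to 6.43 CPM (-3.12 and -5.93). The alarmin IL33 fell by 2.65 and 6.39. UGT1A6, a glucuronosyltransferase, fell by 2.95 and 6.51, but it shares exons with the rest of its gene cluster, so its value is uncertain.

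The transcription factor MYC, a WNT target and driver of growth, was 75.4, 92.7 and 75.8 CPM in degron controls, 59.2, 61.9 and 56.5 at 72 h, 137, 137 and 126 in WT and 32.8, 32.7 and 31.5 in knockout cells. Groups did not overlap in either system, and effects of -0.46 and -2.04 differed by 1.58 (SE 0.10, adjusted p = 8.64e-12). CDX2, the caudal homeobox factor of intestinal identity, fell by 0.35 and 0.91, but with TPM its effect after degradation was 0.21 (limma, adjusted p = 0.0446). HNF4A, a nuclear receptor of gut and liver, fell in knockout by 0.79, while its change after degradation was -0.11 (interval -0.30 to 0.09, adjusted p = 0.351). IQGAP2, a scaffold protein of the cytoskeleton, fell from 47.1 to 0.59 CPM in knockout and from 3.86 to 1.56 after degradation. Its call after degradation was lost with TPM. SEMA5A, an axon guidance protein, fell from 117 to 3.56 and from 49.5 to 22.5 CPM.

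Hair-type keratin genes were among those that rose further in knockout. KRTAP3-1, a keratin-associated protein of hair, was 1.56, 1.38 and 1.55 CPM in WT and 153, 155 and 156 in knockout cells. It was 8.05, 7.12 and 4.46 CPM in degron controls and 9.96, 9.38 and 11 at 72 h. Knockout raised it by 6.69 and degradation by 0.62, from a higher start. The hair keratin KRT81 rose by 5.50 and 1.45, and KRT34 rose by 6.07 in knockout, with a change of -0.06 after degradation (interval -0.56 to 0.45). These genes have close paralogs, so counts may be shared with them. CYP1A1, the monooxygenase induced through the aryl hydrocarbon receptor, rose by 3.19 after degradation and 4.34 in knockout. Its difference of -1.15 was called with adjusted p = 0.0211, and the call was lost without degron control replicate 1 or WT replicate 1 and with DESeq2. With TPM the difference was 0.72 (limma, adjusted p = 0.035), in the other direction.

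SH3PXD2A, a scaffold of invadopodia, was 1.95, 2.79 and 2.97 CPM in degron controls and 27.2, 24.7 and 24.3 at 72 h. In WT it was already 13.1, 15.1 and 15.3 CPM, and 18.8, 17.4 and 17.0 in knockout cells. The effects were 3.31 and 0.29, and the final levels lay nearer each other than the starting levels. The call in knockout was lost without WT replicate 1 or knockout replicate 1, and with TPM. TGFB2, a TGF-beta ligand, rose from 37.9 to 134 and from 69.1 to 102 CPM (1.82 and 0.56). LGR6, a relative of LGR5, rose by 2.59 and 0.64, and FOXN1, the transcription factor mutated in nude mice, by 3.37 and 1.74. With TPM the difference of LGR6 lost its call, and that of FOXN1 was -0.32 and not called.

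OLR1, a scavenger receptor for oxidised low density lipoprotein, began at the same level in both systems. It was 332, 312 and 317 CPM in degron controls and 341, 312 and 306 in WT. It fell to 83.5, 86.9 and 87.7 at 72 h and to 186, 185 and 187 in knockout cells. Degradation thus lowered it by 1.90 and knockout by 0.78, and the difference was -1.12 (SE 0.07, adjusted p = 1.79e-12). MUC13, a membrane mucin, fell from 4.36 to 0.969 CPM after degradation (-2.17) and from 28.6 to 23.7 in knockout (-0.27, lost without knockout replicate 2, with total-count scaling and with TPM). FRAS1, a protein of the epithelial basement membrane, fell by 1.55 and 0.48, the latter not called with TPM.

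How far starting levels differed was counted for each class. The controls of the 2 systems lay 2-fold or more apart for 9.91% of all genes tested (means with 0.5 CPM added). That share was 17.5% of genes deeper in degradation, 7.62% of those deeper in knockout and 8.91% of those that moved alike. At the end points, 72 h and knockout, the shares were 8.86%, 23.1% and 9.96%, beside 11.7% of all genes. For opposite genes they were 11.9% in the controls and 15.3% at the end points. Genes called only after degradation gave 12.3% and 6.15%, and those called only in knockout 8.02% and 17.1%. Each difference rests on all 4 groups, so these shares describe the classes and are not a separate test.

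**Figure D3:**
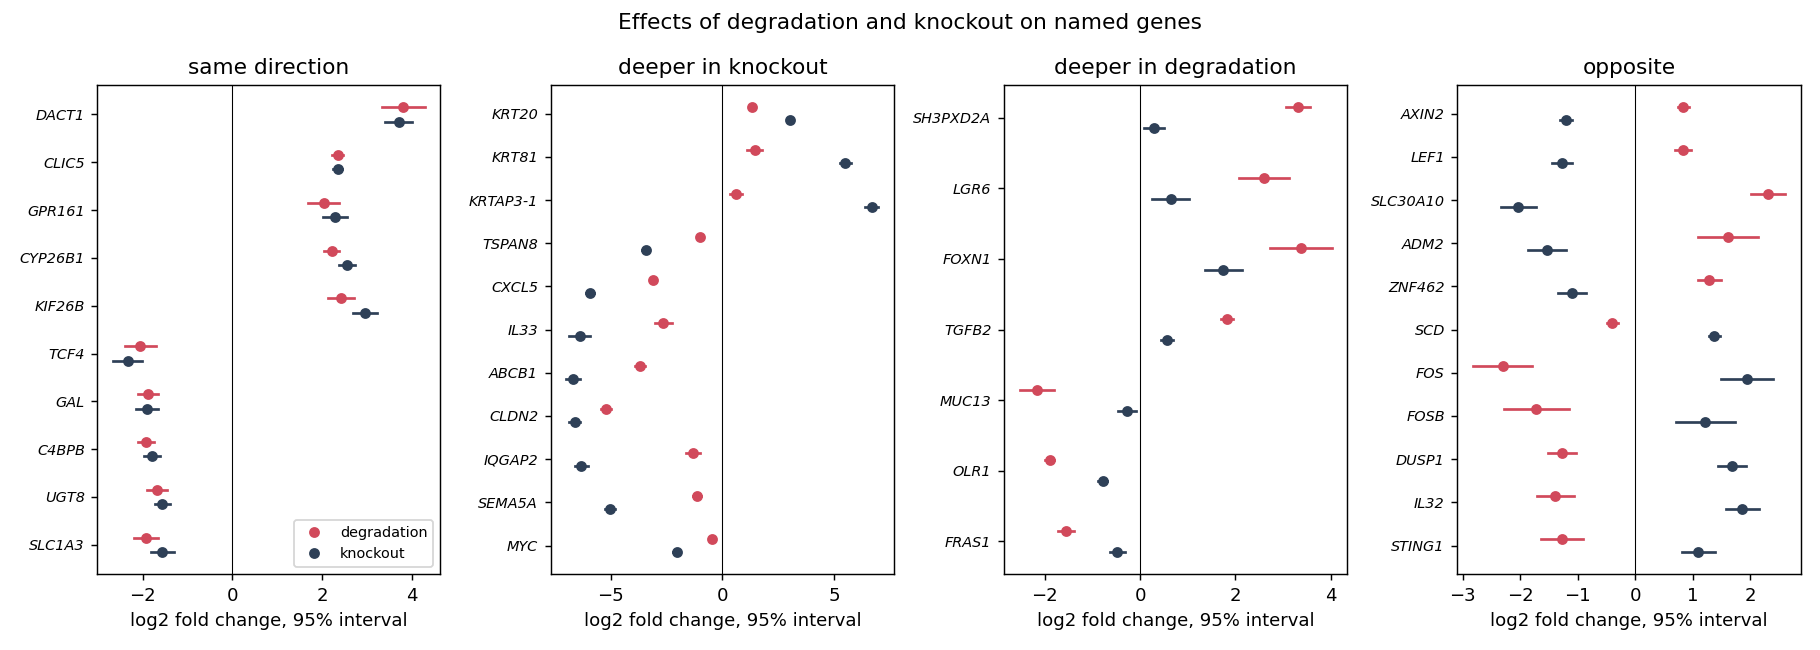
Log2 fold changes with 95% intervals after 72 h of degradation (red) and in knockout (dark blue) for named genes of 4 classes; each panel has its own x axis. DACT1 and CLIC5 show overlapping intervals, TSPAN8 falls by 1.02 and 3.43, and SLC30A10 lies at 2.31 and -2.03 on opposite sides of 0.

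AXIN2, a scaffold of the beta-catenin destruction complex and a feedback target of WNT signalling, moved in opposite directions. AXIN2 (chr17:65528563-65561647) was 297, 307 and 307 CPM in degron controls and 539.7, 539 and 544 at 72 h. It was 308, 339.9 and 327 CPM in WT and 149.9, 132 and 140.0 in knockout cells. Both controls were close, and every 72 h library lay above and every knockout library below them. The effects were 0.83 (SE 0.05) and -1.21 (SE 0.05), with a difference of 2.04 (SE 0.07, adjusted p = 4.98e-17). LEF1, a transcription factor that acts with beta-catenin, was 42.3, 40.2 and 42.6 CPM in degron controls and 77.1, 73.7 and 71.9 at 72 h. It was 24.2, 22.1 and 21.8 CPM in WT and 8.37, 8.95 and 10.9 in knockout cells. It too rose by 0.83 after degradation and fell, by 1.27, in knockout.

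SCD, the stearoyl-CoA desaturase that makes monounsaturated fatty acids, moved the other way. SCD (chr10:100347124-100364834) was 587, 565 and 618 CPM in degron controls and 465, 439 and 439 at 72 h. It was 1048, 979 and 961 CPM in WT and 2640.1, 2538 and 2565 in knockout cells. Groups did not overlap in either system. The effects were -0.40 (SE 0.05) and 1.37 (SE 0.05), and the difference was -1.77 (SE 0.06, adjusted p = 2.91e-16). FASN, the fatty acid synthase, went from 1395 to 494 CPM after degradation (-1.50) and from 762 to 992 in knockout (0.38).

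SLC30A10, a manganese exporter, showed a wide split. It was 2.24, 2.07 and 2.59 CPM in degron controls and 12.2, 11.2 and 10.7 at 72 h, but 7.93, 7.74 and 8.75 in WT and 1.86, 2.03 and 2.05 in knockout cells. The 72 h level lay near that of WT, and the knockout level near that of the degron controls. Its effects were 2.31 and -2.03. The peptide hormone gene ADM2 (1.62 and -1.53), the zinc finger gene ZNF462 (1.29 and -1.10) and the integrin gene ITGA1 (2.40 and -0.92) had effects of the same signs. The knockout call of ITGA1 was lost with TPM. Their levels did not meet as those of SLC30A10 did. ADM2 went from 0.614 to 1.87 CPM after degradation and from 11.5 to 3.96 in knockout.

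FOS, an AP-1 subunit, was 18.3, 22.2 and 32.8 CPM in degron controls and 5.45, 4.62 and 4.70 at 72 h. It was 13.4, 11.8 and 11.7 CPM in WT and 49.1, 40.8 and 52.8 in knockout cells, so no groups overlapped. The effects were -2.30 (SE 0.23) and 1.95 (SE 0.20). FOSB (-1.72 and 1.22) and DUSP1, a phosphatase that dampens MAP kinases (-1.27 and 1.69), went with it. JUN, the partner of FOS, fell by 1.54 after degradation, while its knockout change of 0.54 was not called (interval -0.06 to 1.14). The cytokine IL32 (-1.39 and 1.86) and STING1, the adaptor of cytosolic DNA sensing (-1.27 and 1.10), had the same pattern. Of the whole list of 21 EGFR ligands, MAPK feedback and AP-1 genes, to which FOS and JUN belong, 10 rose and 7 fell after degradation (median -0.04, or 0.10 with total-count scaling), and 6 rose and 5 fell in knockout. With TPM these were 9 and 3 after degradation and 13 and 2 in knockout. The list as a whole thus did not fall with FOS after degradation. Nor did it clearly rise with FOS in knockout, where 29.1% of all genes tested rose and 29.3% fell. With TPM, 73.7% of all knockout calls were higher, so a surplus of rises there is not particular to this list.

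Some large effects were called in 1 system only. BMF, a BH3-only promoter of apoptosis, rose from 1.75 to 13.1 CPM after degradation (2.91) and was 3.53 CPM in WT and 3.47 in knockout (-0.03, interval -0.42 to 0.36). CEMIP, a hyaluronan-degrading protein, was 40.2, 48.6 and 51.2 CPM in degron controls, 260.5, 246 and 234 at 72 h, 50.8, 48.1 and 46.6 in WT and 53.7, 52.1 and 50.3 in knockout cells. Controls and knockout lay together and only the 72 h libraries stood apart, with effects of 2.40 and 0.10 (interval of the latter -0.04 to 0.24). In the other direction, AHNAK2, a large scaffold protein, rose by 2.90 in knockout against -0.12 after degradation (interval -0.47 to 0.23). CADM1, a cell adhesion molecule, fell by 2.72 in knockout, with -0.15 after degradation (adjusted p = 0.0567). The water and glycerol channel AQP3 fell by 2.92 and the desaturase FADS1 by 2.39 in knockout. Their degradation changes were 0.38 (interval -0.14 to 0.89) and -0.17 (interval -0.62 to 0.29).

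Gene lists were counted by direction beside all genes tested, of which 26.4% rose and 27.8% fell after degradation, 29.1% and 29.3% in knockout, and 22.4% and 21.6% had a higher or lower difference. The median difference over all genes was -0.01. Of 21 WNT targets and feedback genes tested, 13 rose and 5 fell after degradation (median 0.39), while 6 rose and 13 fell in knockout (median -0.66). The difference was higher for 11 and lower for 2, with a median of 1.00. Opposite directions were called for 7: AXIN2, LEF1, TCF7, RNF43, ZNRF3, EPHB3 and PROX1. RNF43 and ZNRF3, ligases that remove WNT receptors, rose by 0.70 and 0.71 and fell by 0.32 and 0.69. NKD1, a feedback inhibitor, and DACT1 rose in both. Of the 25 WNT receptors and core components, 14 rose after degradation and 12 in knockout, and 4 fell in each. With TPM in place of counts the WNT target counts were 10 and 3 after degradation and 4 and 10 in knockout, with a knockout median of -0.18 and a median difference of 0.27.

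Genes of sterol synthesis moved apart nearly as a group. Of 24 genes of cholesterol synthesis and uptake, 1 rose and 14 fell after degradation (median -0.20), and 19 rose and none fell in knockout (median 0.51). The difference was lower for 22 and higher for none, with a median of -0.61, and 11 were called in opposite directions. FDPS, the farnesyl diphosphate synthase, was 298, 296 and 285 CPM in degron controls and 207, 211 and 205 at 72 h, against 317, 324 and 299 in WT and 430.4, 468 and 446 in knockout cells. DHCR7, the last step to cholesterol, went by -0.81 and 0.28, EBP by -0.54 and 0.56 and the lanosterol demethylase CYP51A1 by -0.20 and 0.68. The fall after degradation depended on scaling: by total counts 6 rose and 8 fell, and CYP51A1 was no longer called, whereas the difference stayed lower for 21 and higher for none. CCAAT was found in 14 of 17 promoters of the list (82.4%), beside 35.2% of promoters of genes tested. Sterol words (TCACCCCAC, TCACCCCAT, TCACGCCAC) were found in 0 of 17, beside 0.596%. Of 18 fatty acid genes, 4 rose and 11 fell after degradation, and 8 rose and 4 fell in knockout.

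**Figure D4:**
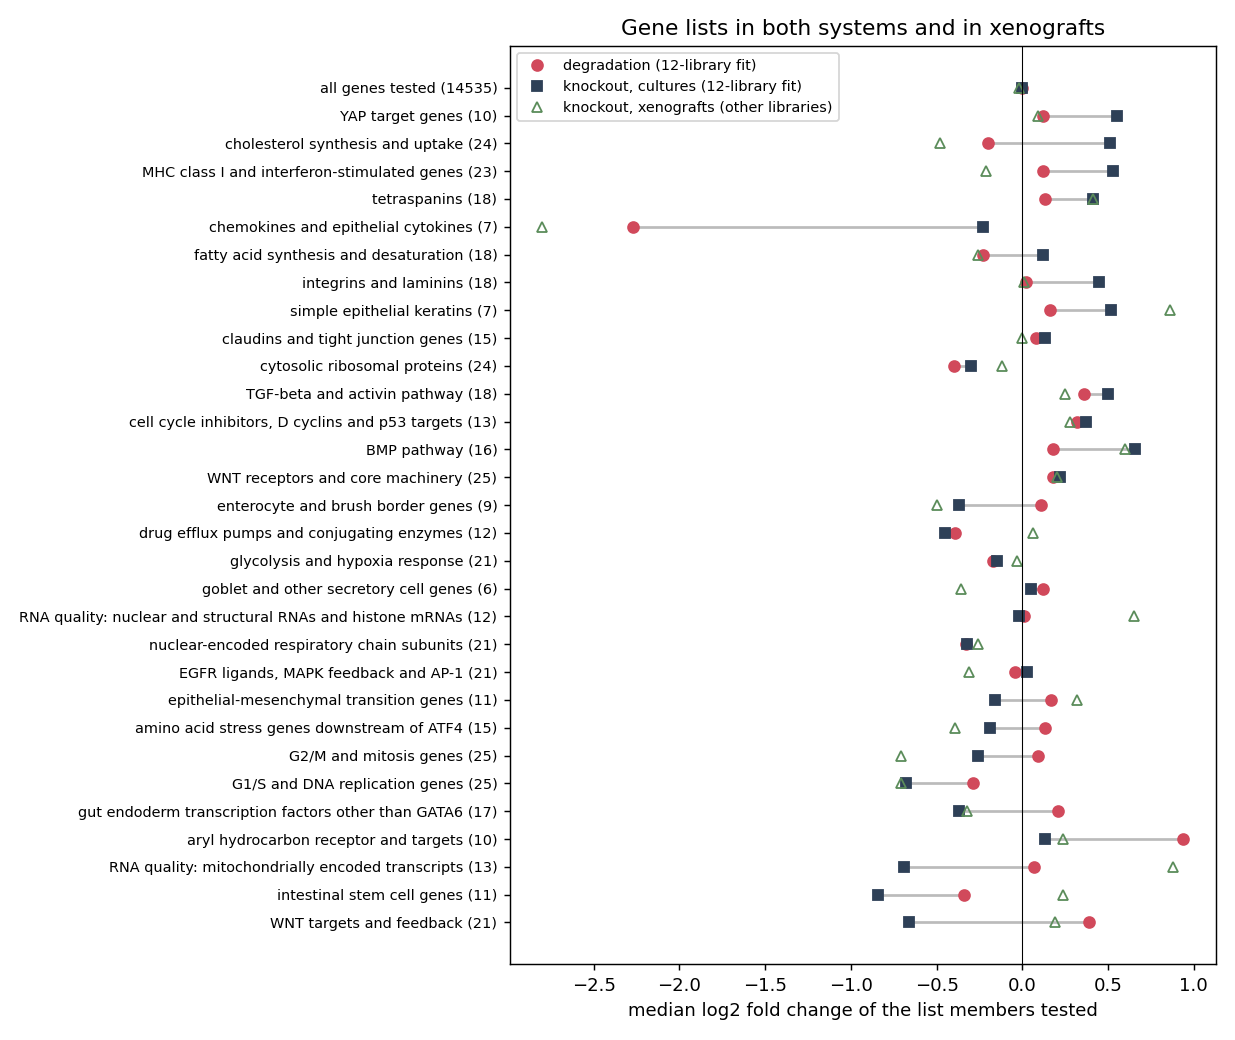
Median log2 fold change of the members tested of each gene list (number in brackets) after 72 h of degradation (circles), in knockout cultures (squares) and in knockout xenografts (triangles), ordered by the median difference. Cholesterol genes and WNT targets lie on both sides of 0 in the cells, and all genes tested lie at about 0.

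Genes of DNA replication fell in both systems, and most of them fell further in knockout. Of 25 genes of the G1/S transition and of DNA replication, 18 fell and 2 rose after degradation (median -0.29), and 23 fell and none rose in knockout (median -0.68). The difference was higher for 19 and lower for none. Even so, 17 of the 25 were called in the same direction in both systems with an interval of the difference within a log2 of 1. MCM6, a subunit of the replicative helicase, averaged 332 CPM in degron controls and 272 at 72 h, and 352 in WT and 166 in knockout cells (-0.29 and -1.09). CLSPN, which relays replication stress, and the chromatin assembly factor CHAF1A were the exceptions that rose after degradation, by 0.62 and 0.24. Of 25 G2/M genes, 11 rose and 4 fell after degradation (median 0.09), and 4 rose and 17 fell in knockout (median -0.26). The mitotic checkpoint kinase BUB1B went by 0.26 and -0.64. With total-count scaling 18 G2/M genes rose and 2 fell after degradation, and with TPM 7 rose and 8 fell in knockout.

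Of 24 cytosolic ribosomal protein genes, 22 fell after degradation and 20 in knockout (11 with TPM), and 18 were called in the same direction in both with an interval of the difference within a log2 of 1. Of 21 nuclear-encoded respiratory chain genes, 16 fell after degradation and 18 in knockout, but with TPM 5 rose and 7 fell in knockout. Of 18 tetraspanins, 8 rose and 8 fell after degradation (10 and 4 with total-count scaling), and 13 rose and 1, TSPAN8, fell in knockout. TSPAN3 rose by 0.72 and 1.99. Of 7 simple epithelial keratins, 5 and 6 rose. Only 9 of the 24 enterocyte and brush border genes were tested. After degradation 2 rose and 3 fell, near the shares of all genes tested (4 and 2, median 0.25, with total-count scaling). In knockout 4 rose and 5 fell (median -0.37), and in xenografts 1 rose and 5 fell. Of 17 gut endoderm factors other than GATA6, 8 rose and 3 fell after degradation (median 0.21), 3 rose and 9 fell in knockout (median -0.37, but 5 and 6 with a median of -0.06 with TPM), and the difference was higher for 10 and lower for none. KLF5 (0.20 and -0.72) and SOX9, a factor of crypt cells (0.43 and -0.56), were opposite among them. Of 11 stem cell genes, 6 fell after degradation and 8 in knockout, with a median difference of 0.99 (0.04 with TPM).

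Of 23 MHC class I and interferon-stimulated genes, 9 rose and 4 fell after degradation, and 16 rose and 1 fell in knockout. B2M, the light chain of MHC class I, fell by 0.67 and rose by 0.84, and the peptide transporter TAP1 fell by 0.44 and rose by 0.39. HLA-B rose by 0.47 and 2.69 and belongs to a family of close paralogs, which makes its value uncertain. Of 10 genes of the aryl hydrocarbon receptor and its targets, 8 rose after degradation (median 0.94) and 5 in knockout (median 0.13). AHR itself went from 73.6 to 153 CPM after degradation (1.05) and by -0.11 in knockout (adjusted p = 0.0713). All 13 mitochondrially encoded transcripts fell in knockout (median -0.69), and 4 rose and 4 fell after degradation (6 and 3 with total-count scaling). Their part in the other results was not tested, but without them 6388 differences were called.

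Of 7 chemokines and epithelial cytokines tested, 6 fell and 1 rose after degradation, and 2 rose and 2 fell in knockout (median -0.23, or 0.13 with TPM). The median after degradation was -2.27, but -0.72 with TPM, -0.43 with the stricter filter and -0.14 with no filter on low counts. CXCL8, a neutrophil chemokine, fell by 3.65 after degradation, with -0.23 in knockout. CXCL5 and IL33 fell in both, and the cytokine IL18 was opposite, at -0.16 and 0.88. Of 18 genes of the TGF-beta and activin pathway, 10 rose and 2 fell after degradation (median 0.36), and 13 rose and 2 fell in knockout (median 0.50). INHBA, a subunit of activin, rose by 4.65 in knockout, with an uncalled 0.59 after degradation, and PMEPA1, a feedback inhibitor, rose by 1.45 and 1.55. Of 10 YAP target genes, 5 rose and 3 fell after degradation, 8 rose and 1 fell in knockout, and the median difference was -0.78.

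Effects after 12 h of auxin are set beside those at 72 h; both use the same 3 controls, so they are given as values only. KRT20 was 0.62 higher at 12 h and 1.31 at 72 h, LGR5 1.55 lower and 3.60 lower, and CLDN2 2.78 lower and 5.23 lower, all on the log2 scale. MYC was already at -0.57. Several genes that went against knockout at 72 h were not called at 12 h. AXIN2 was at 0.04 (adjusted p = 0.794), LEF1 at 0.23, SCD at 0.05, FASN at -0.20 and FOS at -0.08. SLC30A10 at 0.86 and STING1 at -1.27 were called at 12 h. ABCB1, at -0.14, and GAL, at -0.30, were not called at 12 h either, although both fell at 72 h.

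Libraries that the classes did not use were read by class. Xenografts of control and sgGATA6 cells in nude mice, 5 each, gave a knockout effect for 14996 genes, with 28.0% called higher and 28.1% lower. Whether they carry the same knockout clone as the cultures, and how mouse reads were handled, is not stated. The labels name mouse, the host, as the organism of these samples, while the files list human genes. Of genes that rose alike in cells, 55.4% rose and 11.2% fell in xenografts, and of those that fell alike 62.5% fell and 4.81% rose. Of genes deeper in knockout, 71.4% of those that rose and 84.0% of those that fell were called in the same direction. They had been chosen for larger knockout effects (medians 0.98 and -0.77, against 0.53 and -0.41 for genes that moved alike). Among genes with a log2 of 1 or more in both systems, the shares were 73.9% and 72.0% for those that moved alike and 79.2% and 91.9% for those deeper in knockout, a difference that was not tested. Genes deeper in degradation gave 56.1% and 55.6%. Of opposite genes, those higher after degradation and lower in knockout were lower in xenografts for 44.4% and higher for 20.2%, and the reverse genes were higher for 40.0% and lower for 18.9%.

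**Figure D5:**
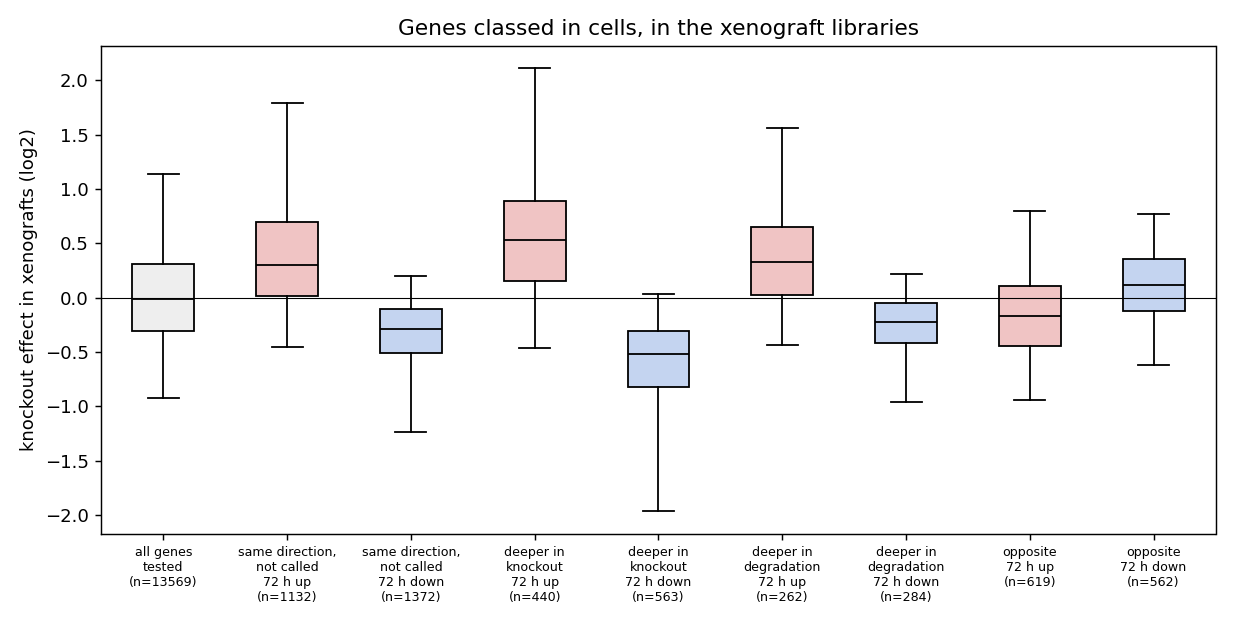
Knockout effect in xenografts (log2, y axis) of genes grouped by their class in cells and their direction at 72 h (x axis, with numbers tested; the first box is all genes tested in both fits); boxes give quartiles and medians, whiskers the 5th and 95th percentiles. Genes deeper in knockout that fell have a median of -0.52 and those that rose 0.53, while both opposite classes lie near 0, at -0.17 and 0.12.

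Individual opposite genes did not all keep the direction of the cultures. AXIN2 ran from 596 to 641 CPM, here without TMM scaling, (median 624) in control xenografts and from 640.0 to 756 (median 720.0) in knockout ones. Its effect of 0.17 was not called (adjusted p = 0.055), against a fall by 1.21 in cultures. LEF1 rose in xenografts by 1.73, from a median of 70.9 to 251, and so moved as after degradation. SCD fell by 0.23, from a median of 502 to 443, whereas it rose in cultures. Of the 24 cholesterol genes 3 rose and 16 fell in xenografts (median -0.48). WNT targets tested there numbered 20, of which 10 rose and 5 fell (median 0.19). FOS was at -0.98 (adjusted p = 0.089). KRT20 (1.83), TSPAN8 (-1.51), LGR5 (-8.84) and MYC (-1.89) were called in the direction of both cell systems. CADM1, which fell in knockout cultures, rose by 2.56 in xenografts, and SEMA5A by 1.32.

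Washout compared 24 h without auxin with 12 h of auxin in the degron line, and called 8.92% of 13356 genes higher and 7.95% lower. These groups also differ in time, so time in culture and removal of auxin cannot be told apart. Of genes that fell alike at 72 h and in knockout, 13.6% rose after washout and 3.97% fell. Of genes that fell further in knockout, 22.2% rose and 6.69% fell, and with a log2 of at least 1 in both systems 17 of 40 rose (42.5%) and 2 fell. Opposite genes that were higher at 72 h split into 11.7% higher and 12.6% lower. LGR5 rose by 1.35, CLDN2 by 2.31, MYC by 0.61, TSPAN8 by 0.27 and OLR1 by 1.54, whereas ABCB1, which was not called at 12 h, fell by 0.89. Of other genes deeper in knockout, CXCL5 rose by 0.45 and IQGAP2 by 1.08, while IL33 (0.34) and SEMA5A (0.41) were not called. KRT20 fell by 0.62 and CLIC5 by 0.48. AXIN2 rose by 0.31 and SCD fell by 1.08 after washout, each in its direction at 72 h. LEF1 fell by 0.28, against its direction at 72 h. AXIN2 did not stand for its list: 3 of 18 WNT targets tested rose after washout and 8 fell (median -0.23). None of the 24 cholesterol genes rose and 14 fell.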

How the data were processed

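RNA sequencing libraries of DLD-1 cells were directional and poly-A selected, per the labels. Reads were processed by the authors with tools that the submitters' processing notes name as Trim Galore 0.6.10, STAR and RSEM on hg38. Which versions of STAR and RSEM, which annotation and which strand setting were used is not given in the sources used here. The authors deposited expected counts per gene, which were rounded to whole numbers, and TPM, which were used in an alternative.

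Genes of the degron files (60662) and culture files (60649) were joined by identifier without its version, which left 60541 shared genes, 55275 of them with an identical version. Of 63007 identifiers, 62700 had a symbol. The 12 libraries were fitted together with a mean for each of 4 groups, using R 4.3.3 and edgeR 4.0.16 (filterByExpr, TMM scaling, robust quasi-likelihood test). P-values were adjusted by Benjamini-Hochberg over 14536 genes. Standard errors are the size of the log2 fold change over the square root of F, and 95% intervals use the t distribution of the same fit. Xenograft libraries (10) and washout libraries (6) were fitted apart. Alternatives used limma 3.58.1 on log2(TPM + 1), DESeq2 1.42.0, other scalings and filters, and leaving out each library. No 2 libraries held identical values. Procedures were tested on simulated counts.

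Named genes are GATA6, the markers, genes known in gut epithelium, the genes with the largest effects of each class (protein-coding, mean log2 CPM of at least 1, groups not overlapping), and from each list at most 4 genes, by the smallest p of the difference. A few list members that tell the reader a list's counts were also named after their values were seen. The members and lists were chosen with earlier results of these data known. Replicate numbers did not pair the samples: deviations of libraries with the same number correlated at -0.00715 to 0.029 in the degron line and at -0.172 to -0.0552 in cultures. Coordinates are of GENCODE v29 on hg38, and promoters are RefSeq. Count intervals cover counting error only. A named gene is not reported here.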

Additional observations from a re-analysis of the deposited data

Results flagged for a closer look

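In the control xenografts, the highest of 5 LGR5 values, 74.9 CPM, lay far from the other 4 for so small a group. The criterion used marks about 1 in 20 groups by chance.

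In several named genes, both effects passed the test in opposite directions, and the difference between them passed it too. HIC2 and FLRT3 are named only here. The log2 difference, degradation minus knockout, was above 0 for SLC30A10 (4.344), ITGA1 (3.319), ADM2 (3.149), ZNF462 (2.393), PROX1 (2.21), LEF1 (2.106), HIC2 (2.095), FLRT3 (2.093), AXIN2 (2.042), CLSPN (1.429), ZNRF3 (1.406), EPHB3 (1.331), RNF43 (1.017), TCF7 (0.9955), SOX9 (0.9854), KLF5 (0.9265), CHAF1A (0.9112) and BUB1B (0.895). It was below 0 for FOS (-4.25), IL32 (-3.255), DUSP1 (-2.963), FOSB (-2.936), STING1 (-2.369), FASN (-1.877), SCD (-1.772), B2M (-1.509), EBP (-1.097), DHCR7 (-1.093), IL18 (-1.039), FDPS (-1.013), CYP51A1 (-0.8766) and TAP1 (-0.8287). The genes were named after their values were known, so their number says nothing about how common the pattern is.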

How the results depend on the processing

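Recalculations were counted for 192 values of named genes that were called in the main fit. Of 4544 such recalculations, 4452 kept direction and side of the threshold, 73 lost the call and 19 changed direction. Values not called in the main fit were left out, so a gained call could not appear. The missed calls behind genes that moved alike or were called in 1 system only are thus not covered. Changes of direction came from 2 settings. With limma on log2(TPM + 1), where the added 1 compresses values near 0, the differences of LGR5, CYP1A1 and FOXN1 became -0.0792, 0.72 and -0.32, and the degradation effect of CDX2 became 0.21. The other setting, 12 h of auxin in place of 72 h, was chosen after seeing the data, as was leaving out mitochondrially encoded genes. At 12 h the degradation effects were 0.0550 for SCD, -0.28 for CYP1A1, 0.0274 for UGT8, -0.42 for ADM2, -0.27 for ZNF462, 0.0552 for FOSB, 0.13 for DUSP1, 0.0769 for IL32, 0.0365 for CYP51A1, -0.0049 for CLSPN, -0.19 for CHAF1A, -0.0918 for BUB1B and 0.0036 for B2M. The differences of FOXN1 and FRAS1 were -0.36 and 0.0874. The cause was not tested.

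At 12 h, 808 degradation effects were called, and the classes held 230 genes that moved alike, 327 deeper in knockout, 12 deeper in degradation, 102 opposite and 437 called in the same direction within a log2 of 1. With a log2 of 1 required, these were 275, 91, 26, 37 and 115, and 1239 differences were called. With TPM, 670 were deeper in knockout, 268 deeper in degradation and 735 opposite, and 536 washout effects were called. With total-count scaling the median effect of all genes was 0.137 after degradation and 0.108 in knockout, against 0.002 and 0.004 with TMM. It moved the share of calls that were higher from 48.7% to 66.7% and from 49.8% to 61.9%. TPM gave 67.2% and 73.7%, and moved that share of the difference from 50.9% to 39.9%.

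Leaving out 1 library gave 5812 to 6473 called differences, 6932 to 8073 degradation effects and 7860 to 8543 knockout effects. The classes ranged from 2463 to 2637 (alike), 816 to 1011 (deeper in knockout), 420 to 537 (deeper in degradation), 1023 to 1192 (opposite) and 3208 to 3487 (within a log2 of 1). Xenograft calls ranged from 7583 to 8407 and washout calls from 1185 (without washout replicate 3) to 2340, with 1304 without 12 h replicate 1. With the replicate number as a block, 5925 differences, 7486 degradation effects and 8207 knockout effects were called, and the calls of GATA6 after degradation and of the KIF26B difference were lost. DESeq2 called 6068, 7465 and 8159. Low counts limit DACT1, FOXN1, LGR6 and LGR5 in knockout cells, among others. Mean levels were also low for CYP1A1 (0.168 CPM) and KRT34 (0.666) in WT. The same holds for ADM2 in degron controls (0.614) and IL33 in knockout cells (0.327).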
